A study of Drosophila melanogaster with 2 samples.

Results

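The genes examined here are 7 genes through which Drosophila stores, senses and moves iron. They are the ferritin genes Fer1HCH, Fer2LCH and Fer3HCH, the iron regulatory protein genes IRP-1A and IRP-1B, the transferrin gene Tsf1 and the metal transporter gene Mvl. They were taken by name, with earlier results of these data known, and are 7 of the 18164 annotated genes considered. All 7 were found in the annotation, 5 on chromosome arm 3R and 2 on X. The annotation spells the regulatory protein genes Irp-1A and Irp-1B. For each gene, every candidate binding site of CG10654 whose summit lay in the gene span or within 2 kb of it was collected.

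CG10654, the product of a gene known only by its number, was mapped by chromatin immunoprecipitation followed by sequencing (ChIP-seq). The embryos came from a transgenic line that stably expresses CG10654 with GFP at its C-terminal end, and an antibody to GFP was used. They were intact embryos of both sexes, 0 to 24 h old, with chromatin sonicated to 200 to 800 bp. The 2 biological replicates form 1 group, share the same insertion line, whose driving promoter the labels do not name, and stand alone without a second genotype, treatment or stage. Each value therefore averages over all embryonic tissues and stages, and no marker of a tissue can be checked in a list of peaks.

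Iron is needed for haem, for iron-sulphur clusters and for many enzymes, but free iron is toxic. Cells keep the excess inside ferritin, a hollow protein shell. In insects the main ferritin is built from heavy chains (Fer1HCH), which oxidise iron as it enters, and light chains (Fer2LCH), is assembled in the secretory pathway and is also carried in the haemolymph. The genes of both chains lie head to head. Fer3HCH encodes a mitochondrial ferritin. IRP-1A and IRP-1B are relatives of cytosolic aconitase, and IRP-1A binds iron-responsive elements in messenger RNAs, among them that of the ferritin heavy chain. Tsf1 is a secreted transferrin that carries iron between tissues, and Mvl (Malvolio) is the fly relative of the mammalian NRAMP family of divalent metal importers.

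The sequences around the strongest site at each of 4 places are shown because the results below turn on them. Each is the dm6 plus strand (Release 6), 5′ to 3′, over the pooled summit and 89 bp on either side. Capitals mark matches to the motif letters described further below. The ferritin window is chr3R:30388378-30388556 and the IRP-1A window is chr3R:22724605-22724783. The Fer3HCH window is chrX:13109843-13110021 and the IRP-1B window is chr3R:10411834-10412012.
ferritin: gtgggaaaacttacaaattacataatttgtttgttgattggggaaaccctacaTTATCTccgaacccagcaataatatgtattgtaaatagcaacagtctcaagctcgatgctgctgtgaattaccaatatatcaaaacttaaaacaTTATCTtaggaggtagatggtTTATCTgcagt
IRP-1A: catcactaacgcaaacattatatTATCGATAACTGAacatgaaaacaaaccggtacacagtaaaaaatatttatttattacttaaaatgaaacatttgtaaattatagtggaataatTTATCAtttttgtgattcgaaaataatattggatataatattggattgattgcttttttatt
Fer3HCH: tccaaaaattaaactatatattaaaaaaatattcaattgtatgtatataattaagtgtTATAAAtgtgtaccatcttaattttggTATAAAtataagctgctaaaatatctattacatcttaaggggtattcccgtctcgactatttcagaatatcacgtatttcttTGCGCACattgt
IRP-1B: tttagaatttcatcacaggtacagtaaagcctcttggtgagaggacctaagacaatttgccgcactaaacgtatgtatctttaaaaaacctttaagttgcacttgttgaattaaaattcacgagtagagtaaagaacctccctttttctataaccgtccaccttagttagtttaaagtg

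CG10654 had a strong site in the promoter that Fer1HCH and Fer2LCH share and a site of middling strength just upstream of IRP-1A, and the other 4 iron genes had candidates of lower signal only. The authors deposited candidate sites for each replicate, for the pooled reads of both, and a short list of 4117 sites that passed the irreproducible discovery rate (IDR), a comparison of rankings between replicates. The sites on this short list, called IDR peaks here, were the strongest 4117 of the 27219 pooled candidates. Signal values are taken here as the authors' enrichment per site, although the peak caller behind them is not named. They have no absolute scale and are ranked only within a list. A pooled value has no replicate error, and the sequencing depth behind the lists is unknown.

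An IDR summit lay in or within 2 kb of 3 of the 7 genes, Fer1HCH, Fer2LCH and IRP-1A. Among all 18164 genes the same rule held for 30.9%, and among the 13945 protein-coding genes for 34.4%. At 3 of 7 genes, resting on only 2 distinct peaks, the share is near that background and is no result about iron genes as a group. The same 3 genes had their IDR summit no more than 500 bp from an annotated start of transcription (TSS), called a promoter summit here. Of all genes 16.3% had one, and of protein-coding genes 19.8%. Both IDR peaks had a summit within 100 bp in each replicate, which was true of 96.2% of all IDR peaks.

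**Figure D1:**
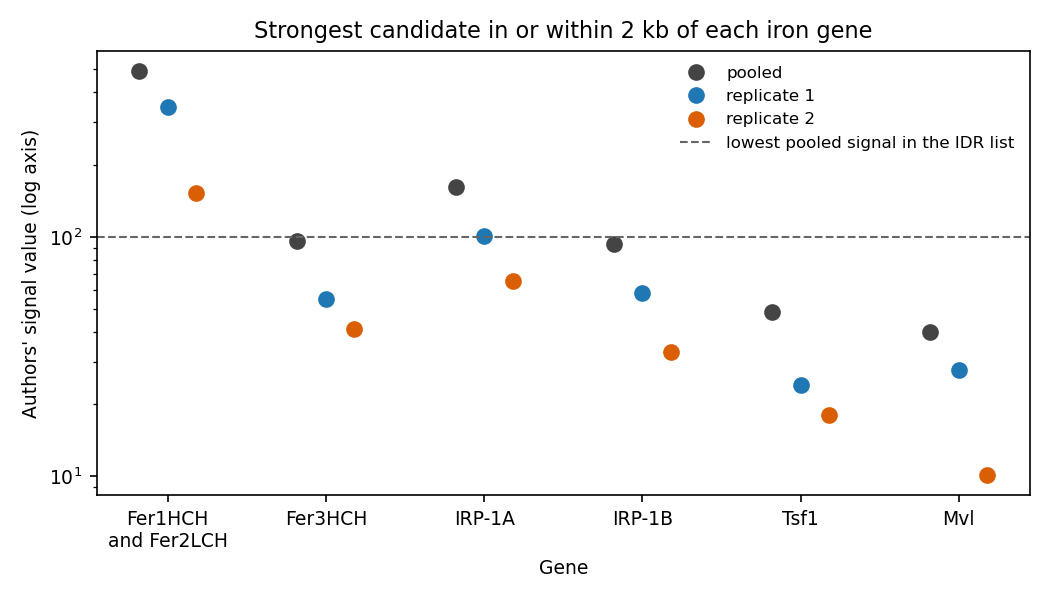
Signal value (log axis) of the strongest pooled candidate in or within 2 kb of each of the 7 genes, with the values of replicate 1, replicate 2 and the pooled reads as separate points and the lowest IDR signal of 99.3 as a dashed line. The pooled values of the ferritin pair (491.7, 1 shared site) and of IRP-1A (161) stand above the line, and those of Fer3HCH (96.1) and IRP-1B (93.3) just under it.

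The ferritin pair Fer1HCH and Fer2LCH held the strongest site of the 7 genes. Fer1HCH (FBgn0015222, chr3R:30385573-30388178, minus strand) and Fer2LCH (FBgn0015221, chr3R:30387804-30390584, plus strand) run apart from canonical TSSs 1211 bp from each other. Their alternative 5′ exons make the gene spans overlap by 375 bp. The peak at chr3R:30388272-30388661 lay between the canonical TSSs, with its summit at position 30388467. Its width of 390 bp was that of 69.6% of IDR peaks and is no measure of the site.

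The ferritin peak had a signal of 349 in replicate 1, 152 in replicate 2 and 491.7 in the pooled reads. Those values ranked 193rd of 23253, 276th of 30000 and 219th of 27219. The site was thus near the top of each list, with 218 IDR peaks above it and 94.7% of IDR peaks below it. Among the 2164 IDR peaks at promoters it ranked 150th. The replicate 1 summit was at the pooled position, and the replicate 2 summit was 34 bp to its right.

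Replicate 1 gave a ferritin signal 2.29 times that of replicate 2. The lists' scales may differ, so the ratio is read only beside that of other sites. Replicate 1 signals were in general the higher ones, and the median ratio over the 3960 IDR peaks matched in both replicates was 1.93, with quartiles of 1.60 and 2.34. Of those peaks 73.0% had a ratio no higher than that of the ferritin peak. The neighbours in the promoter ranking were Drat, an alcohol dehydrogenase family gene, with 491.9, and the promoter shared by Ino80, a chromatin remodeller, and Aptx, a DNA repair gene, with 489.9. Drat had 238 and 172 in replicates 1 and 2, and the Ino80 and Aptx site had 337 and 149. The ferritin site was therefore above Drat in replicate 1 and below it in replicate 2, although their pooled values were nearly the same.

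The position of the ferritin summit depended on which transcript start was used. It lay 191 bp downstream of the Fer2LCH start at 30388276 (1 of the 5 transcripts), inside the first intron of that transcript. It lay 363 bp upstream of the canonical Fer2LCH start at 30388830 and 672 bp upstream of the start at 30389139, and 663 bp downstream of the farthest start at 30387804. Of the 9 Fer1HCH transcripts, 1 begins at 30388178, 289 bp from the summit. The others begin 607 bp (5 transcripts), 848 bp (2 transcripts, the canonical start) and 867 bp (1 transcript) away, with the summit upstream of each. Fer1HCH thus counts as a gene with a promoter summit through a start used by 1 annotated transcript. The distance to Fer2LCH was within 500 bp by its canonical start as well.

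Around the ferritin peak, other candidates were weak. A second pooled candidate, summit 30388666 in a Fer2LCH 5′ untranslated exon, had a signal of 59.0 (rank 8054) and no match in either replicate. Another, summit 30392126 beyond the 3′ end of Fer2LCH, had 39.6 in the pooled reads and 25.9 in replicate 2, with none in replicate 1. Beyond the 3′ end of Fer1HCH a candidate at 30385260 had 28.0 and was matched in neither replicate. The promoter peak was the only candidate of the ferritin pair that both replicates held.

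**Figure D2:**
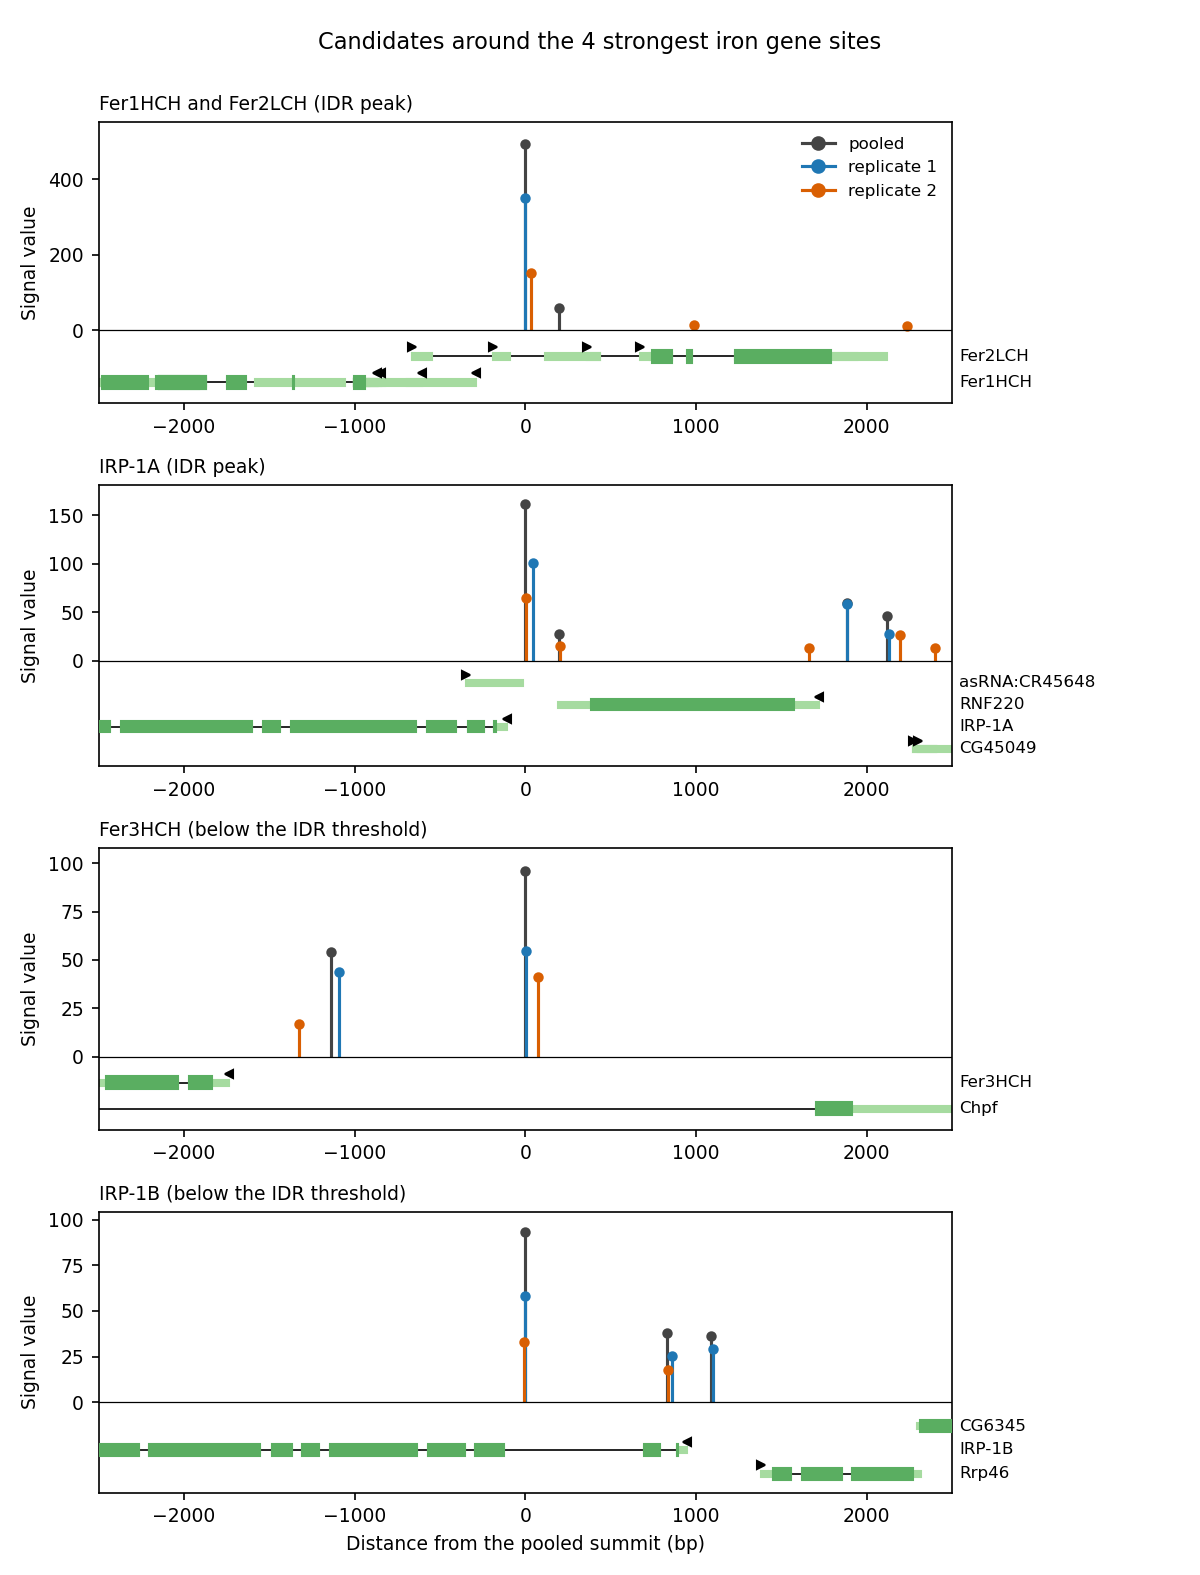
Signal value of the pooled, replicate 1 and replicate 2 candidates (stems) at the 4 strongest sites, by distance in bp from the pooled summit, above the annotated exons (coding parts dark, other parts pale), introns (lines) and TSSs (arrowheads) of the genes there. Each panel has its own signal scale, and the ferritin panel has a single tall site between the canonical TSSs, held by both replicates, while the Fer3HCH site lies in an intron of Chpf and the IRP-1B site inside the IRP-1B gene.

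Fer3HCH (FBgn0030449, chrX:13107382-13108194, minus strand) had no IDR peak. Its whole span lies inside that of Chpf, a chondroitin polymerising factor gene on the same strand, so sites nearby cannot be assigned to either gene from position. The strongest candidate, chrX:13109737-13110126, was 1738 bp upstream of the Fer3HCH start and had 54.8 in replicate 1, 41.2 in replicate 2 and 96.1 in the pooled reads. It ranked 4276th of the pooled list, 159 places below the last IDR peak, at 96.8% of the lowest IDR signal. Of the 23102 pooled candidates below the IDR threshold, 99.3% were weaker. The site ranked higher in replicate 2 (3485th) than in replicate 1 (5196th), and the replicate summits were 69 bp apart.

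A second Fer3HCH candidate lay 598 bp upstream of the start and had 43.6 in replicate 1 and 54.2 in the pooled reads. Replicate 2 had a summit of 17.1 in that stretch, 413 bp upstream of the start, too far to count as matched within 100 bp. The nearest IDR peak was 7252 bp outside the gene, in an intron, with a signal of 188. The mitochondrial ferritin gene thus had no pooled candidate within 500 bp of its start. Its strongest candidate within 2 kb had 96.1, against 491.7 at the promoter of the secreted ferritin pair. These are unlike sites, since the one near Fer3HCH is not at its promoter and may belong to Chpf.

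**Figure D3:**
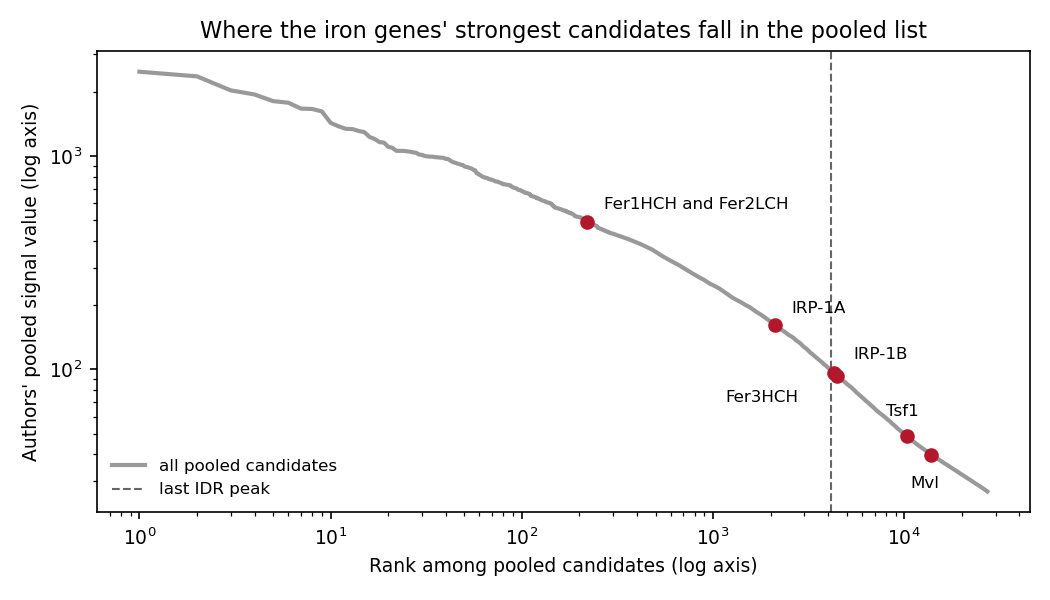
Authors' pooled signal value against rank among the 27219 pooled candidates, both on log axes, with the strongest candidate of each gene as a labelled point and the last IDR peak (rank 4117) marked. The ferritin site falls at rank 219 on the steep upper part, IRP-1A at 2108 in the middle of the IDR peaks, and Fer3HCH (4276) and IRP-1B (4445) directly after the last of them.

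The regulatory genes differed from each other in signal. IRP-1A (FBgn0024958, chr3R:22721320-22724587, minus strand) had an IDR peak at chr3R:22724499-22724888, with the summit in intergenic sequence 107 bp upstream of its only annotated start. The signal was 101 in replicate 1 (rank 2287), 65.1 in replicate 2 (rank 1675) and 161 in the pooled reads (rank 2108). The site thus lay near the middle of the IDR peaks, whose median signal was 164, and 48.8% of them were weaker. The summits were 46 bp and 1 bp from the pooled one in replicates 1 and 2.

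The ferritin peak had 3.05 times the IRP-1A signal in the pooled reads, 3.46 times in replicate 1 and 2.34 times in replicate 2. The order was the same in both replicates, and the ratio has no error beyond those 2 values. The IRP-1A summit was also within 500 bp of the start of asRNA:CR45648, a non-coding gene on the opposite strand that overlaps IRP-1A by 240 bp. RNF220, whose mammalian relative is a RING finger ubiquitin ligase, ends 296 bp from IRP-1A. Which of these genes the site belongs to cannot be read from position.

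A further IRP-1A candidate had 52.4 in replicate 1, 19.3 in replicate 2 and 70.3 in the pooled reads, and lay in an intron of the next gene, wge (winged eye). Another had 58.8 in replicate 1 and 59.8 in the pooled reads, with no match in replicate 2. That summit was 165 bp upstream of the RNF220 start and 1992 bp from that of IRP-1A. A weak candidate at 27.2 in the pooled reads (15.5 in replicate 2 only) lay beside the promoter peak. These 3 came into the count through the 2 kb margin and had a nearest start in another gene in 2 cases.

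IRP-1B (FBgn0024957, chr3R:10408618-10412869, minus strand), the paralogue, had no IDR peak within 2 kb. Its strongest candidate, chr3R:10411728-10412117, lay in an intron 946 bp downstream of the start. It had 58.0 in replicate 1 (rank 4814), 33.1 in replicate 2 (rank 4692) and 93.3 in the pooled reads (rank 4445). The replicate summits were 5 bp apart, and the pooled rank was 328 places below the last IDR peak, at 94.0% of the lowest IDR signal. The site was held by both replicates and was above 98.6% of the candidates below the threshold. Its rank was below 4117th place in the pooled list and in that of each replicate.

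At the IRP-1B promoter itself the signals were lower. A candidate 119 bp downstream of the start had 25.1 in replicate 1, 17.5 in replicate 2 and 38.0 in the pooled reads. A candidate 144 bp upstream had 29.3 in replicate 1 and 36.6 in the pooled reads, and none in replicate 2. The promoter signal of the paralogues was 161 at IRP-1A and 38.0 at IRP-1B. The nearest IDR peak to IRP-1B lay 3270 bp outside the gene, with a signal of 286, and was 93 bp upstream of the start of CG6345.

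By the strongest candidate of each gene, Tsf1 and Mvl had the lowest signals of the 7 genes. These 2 genes say nothing about iron transport genes in general. Of 7 further iron transport genes, described below, 2 had an IDR promoter summit, beside 16.3% of all genes and 19.8% of protein-coding genes. Those summits, at Tsf2 and Zip99C, were each nearest to the start of another gene, so this count is no result about transport genes either. Tsf1 (FBgn0022355, chrX:18387084-18390344, plus strand) had a single pooled candidate, 1820 bp upstream of its start, with 24.1 in replicate 1, 18.1 in replicate 2 and 48.5 in the pooled reads. That summit was 22 bp upstream of the start of betaCOP, which encodes a coat protein of Golgi vesicles. No pooled candidate lay within 500 bp of a Tsf1 start. The nearest IDR peak was 15314 bp away, in an intron of Nt5b, with a signal of 159.

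Mvl (FBgn0011672, chr3R:21051383-21060800, minus strand) has the longest span, 9418 bp against a median of 2166 bp for protein-coding genes, and had the most pooled candidates, 5. Their signals were 30.4 to 39.9. The strongest, 848 bp downstream of a start, had 27.7 in replicate 1 and 10.1 in replicate 2, with summits 142 bp apart. Close to the 5′ end, 32 bp upstream of a start, a candidate had 20.2 in replicate 2 and 30.4 in the pooled reads, and none in replicate 1. Another lay 489 bp upstream and had 24.3 in replicate 1 and 39.3 in the pooled reads, without replicate 2. The replicates thus did not hold the same Mvl promoter candidate, and the nearest IDR peak was 33731 bp from the gene.

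A candidate by itself says little in these lists. All 7 genes had a pooled candidate in or within 2 kb, as had 73.6% of all genes. All 7 had a candidate matched in both replicates, as had 51.7% of all genes. The 7 genes held 20 distinct pooled candidates, of which 18 were below the IDR threshold. Of those 18, 7 were matched in both replicates (38.9%), 4 in replicate 1 alone, 3 in replicate 2 alone and 4 in neither, while 29.5% of all pooled candidates below the threshold were matched in both. The median pooled signal was 39.5 for the 18 and 37.0 for all 23102 pooled candidates below the threshold. Read by the strongest candidate of each gene, 97.1% of protein-coding genes had a weaker one than the ferritin pair or none at all. The same share was 78.6% for IRP-1A, 64.7% for Fer3HCH, 63.8% for IRP-1B, 45.2% for Tsf1 and 38.9% for Mvl. Genes without any pooled candidate are counted in each of these shares.

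The windows printed above differed in base composition and in the motif letters they held. The share of G and C was 34.6% at ferritin, 22.3% at IRP-1A, 25.7% at Fer3HCH and 35.8% at IRP-1B. The median of all IDR windows of the same length was 34.1%, with quartiles of 29.6% and 39.1%, so the IRP-1A and Fer3HCH windows were richer in A and T than most. Motif letters were searched on both strands over these windows of 89 bp on either side, wider than the planned 50 bp. The shares given below are for windows of the same wider length. A match is a description of the letters and no evidence of binding by the factor named.

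The ferritin window held 3 matches to AGATAA, a form of the site of GATA factors, each on the minus strand and so printed as TTATCT, starting 36 bp left, 58 bp right and 79 bp right of the summit. At least 1 AGATAA was held by 12.7% of IDR windows, 11.2% of windows at candidates below the threshold and 9.31% of windows centred on a TSS. GATA factors are known as regulators of genes in the fly gut and fat body. Further forms of the GATA site searched were TGATAA, the version AGATAG that ends in a guanine, and the version TGATAG that differs from AGATAA at both ends. With these counted as 1 set, at least 1 match was held by 35.6% of IDR windows, 30.4% of those below the threshold and 27.1% of TSS windows. In that set, 3 or more matches were held by 1.65% of IDR windows, 1.09% of those below the threshold and 0.789% of TSS windows. The minimum of 3 was set after the ferritin window had been seen.

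The IRP-1A window held TATCGATA, the core of the DNA replication-related element bound by DREF, starting 66 bp left of the summit. This word was held by 3.45% of IDR windows, 1.66% of windows below the threshold and 5.23% of TSS windows. It reads the same on both strands and contains CGATA, the core letters of BEAF-32 sites, on each of them. CGATA was held by 27.4% of IDR windows and 31.9% of TSS windows. The initiator letters TCAGTT, on the minus strand, share 1 base with the end of TATCGATA and were held by 11.1% of IDR windows and 20.0% of TSS windows. On the other side of the summit, 28 bp to the right, was TGATAA on the minus strand (printed as TTATCA), held by 16.2% of IDR windows.

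The Fer3HCH window held TATAAA, the TATA box letters, on the plus strand at 31 bp and 4 bp left of the summit. Fer3HCH and Chpf both run on the minus strand. TATAAA was in 34.5% of IDR windows and 23.9% of TSS windows. The Fer3HCH window also held TGCGCAC, a match to TGCGCNC, the core of the metal response element bound by MTF-1, 78 bp to the right of the summit. TGCGCNC was held by 4.35% of IDR windows, 5.41% of those below the threshold and 6.85% of TSS windows. The other core, TGCACNC, was in none of the 4 windows, and neither was the antioxidant response element TGACNNNGC. The same holds for the E-box CACGTG, the GAGA element GAGAGAG, the cAMP response element TGACGTCA, the second initiator form TCAGTC, the remaining GATA forms and Motif 1 of M1BP. The IRP-1B window held no match to any of the motifs. Within the planned 50 bp of the summit, the ferritin site held 1 AGATAA, the IRP-1A site 1 TGATAA and the Fer3HCH site 2 TATAAA. The other matches described, among them TATCGATA at IRP-1A and TGCGCAC at Fer3HCH, came in only through the wider window.

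Short words more frequent at the CG10654 summits than in nearby sequence were also looked for. They were found without the 2 member peaks, by counting words of 8 letters within 50 bp of the summit and in windows 300 bp away. The 5 of highest ratio were AACTATCG, ATTCTTAA, AGTTTTAA, CACTGAGA and AGAATTAA, at 5.56 to 6 times as many IDR windows as neighbouring windows. AACTATCG, for example, was in 66 of 4115 IDR windows (1.60%), against 11 neighbouring windows. None of the 5 was in any of the 4 windows printed above. Each was rare, in 1.22% to 2.50% of IDR windows within 50 bp of the summit, so this absence says little.

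Other genes of iron metabolism were looked up in the same way. Of 25 further genes, 5 had an IDR promoter summit (20%), beside 16.3% of all genes and 19.8% of protein-coding genes. By list, that was 1 of 8 genes of haem synthesis and breakdown, 2 of 7 of iron transport and 2 of 10 of iron-sulphur cluster assembly. In or within 2 kb of the gene it was 11 of 25 (44%), beside 30.9% of all genes. Most of these peaks lay nearer to the start of another gene, as described next, and the shares are given with no test.

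The strongest of the 5 promoter sites was at Ciao1, an iron-sulphur cluster assembly factor of the cytosol, with 254 in replicate 1, 108 in replicate 2 and 372 in the pooled reads. Its summit was 331 bp upstream of Ciao1 and 50 bp from the start of HPS1. Tsf2, the fly melanotransferrin, had 194 and 82.4 in replicates 1 and 2 and 277 in the pooled reads, nearest to CG34242. Both of these pooled values were below the 491.7 of the ferritin promoter and above the 161 of IRP-1A.

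Mms19, which delivers iron-sulphur clusters to DNA repair enzymes, had 112 and 54.7 in replicates 1 and 2 and 164 in the pooled reads, close to IRP-1A in rank (2054 and 2108), at a promoter shared with Kat60. Pbgs, the porphobilinogen synthase, had 98.6 and 40.3 in replicates 1 and 2 and 144.5 in the pooled reads, 53 bp upstream of its start. Zip99C, a ZIP family transporter that moves iron into the secretory pathway where ferritin is loaded, had 66.2 and 41.2 in replicates 1 and 2 and 107 in the pooled reads, nearest to CG34133. Of the 5 summits, 3 were nearest to the start of another gene, leaving Pbgs and Mms19. At the ferritin peak the nearest start was that of Fer2LCH, and at the IRP-1A peak that of IRP-1A itself.

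The other 6 genes counted within 2 kb had no IDR promoter summit, and each peak there was nearest to the start of another gene, within 500 bp of it in 5 of the 6. The strongest peak near Ho, the haem oxygenase, had 396 and was 163 bp from the start of CG18476. That near Urod, of haem synthesis, had 204 and was 29 bp from RpL31, a ribosomal protein gene. The peak near Uros1 had 153 and was 18 bp from Moe (moesin). The peak near Alas, the first enzyme of haem synthesis, had 277 and was 81 bp from the start of or, the peak near Tsf3 had 134 and was 105 bp from CG15701, and that near Nfs1, the cysteine desulphurase, had 133 and was 733 bp from Hacd1. These 6 genes were named after their values had been seen.

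Coprox, the coproporphyrinogen oxidase, had the strongest promoter candidate below the threshold among the 25, with 69.4 in replicate 1, 34.7 in replicate 2 and 97.9 in the pooled reads (rank 4178). In 6 of the 25 genes, among them FeCH (ferrochelatase), Alas and Nfs1, no pooled candidate lay within 500 bp of a start. The median of the strongest promoter signal over the 25 was 49.0, counting those 6 as 0. The weakest of the promoter candidates that were found was at Mco3, a multicopper oxidase, with 27.5.

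**Figure D4:**
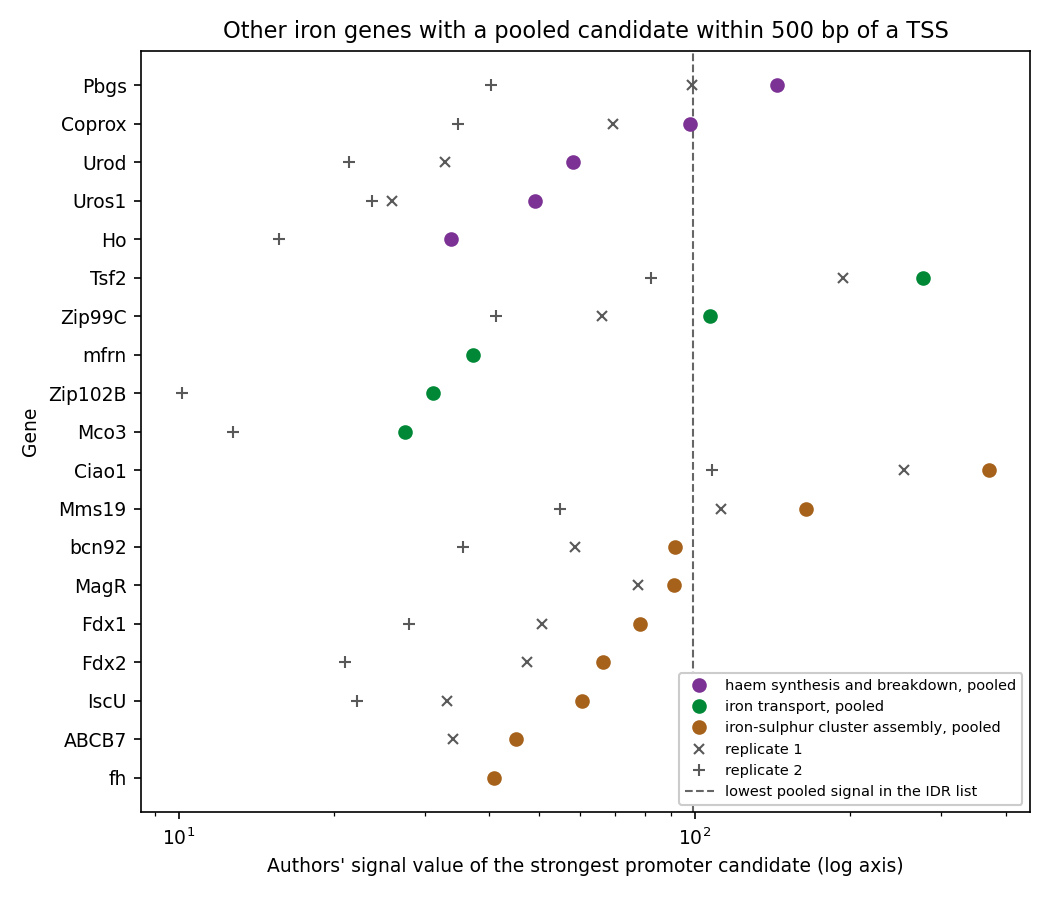
Signal value (log axis) of the strongest promoter candidate of each other iron gene that has a pooled candidate within 500 bp of a start, with the pooled reads, replicate 1 and replicate 2 as separate points and the lowest IDR signal of 99.3 as a dashed line. The pooled points of Pbgs, Tsf2, Zip99C, Ciao1 and Mms19 stand right of the line, with Coprox (97.9) just left of it.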

How the data were processed

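ChIP-seq candidate lists of CG10654-GFP whole embryos (1 group, 2 biological replicates) were used as deposited, in dm6. Per the deposited file descriptions, the authors called candidates per replicate and on the pooled reads against a control, then thresholded them by IDR. The signal value was taken as the authors' enrichment per candidate. The deposited -log10 q value is their significance, tied at its highest for 2233 IDR peaks and so not used for ranking. The sources used here give no peak caller, aligner or IDR threshold, and the control library was not analysed here. The replicate 2 list held 30000 entries, a round figure and perhaps a cap. The older dm3 lists were not used.

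Genes and starts came from Ensembl release 115, members by symbol or a RefSeq synonym, and sequence from RefSeq's Release 6 genome. Summits (1-based) were matched within 100 bp. A promoter summit lay within 500 bp of an annotated start. No test was made, since there is 1 group, and counts are set beside all genes. The assignment of summits to genes was tested on simulated summits, which recovered 200 of 200 planted genes. Python 3.11.15, numpy 2.4.6, pandas 2.3.3 and matplotlib 3.10.9 were used.

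The members, gene lists and motifs were chosen with earlier results of these data known. Genes named are the 7 members, genes with a start within 500 bp of their IDR summits, other iron genes with an IDR promoter summit, and the promoter neighbours in rank of the ferritin peak. Genes named beside these were chosen after their values were seen, and 1 further iron gene is not reported here. Alternatives were the flank, the promoter window, matching distance, the stronger part of the IDR list, all pooled candidates, and the replicate lists alone.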

Additional observations from a re-analysis of the deposited data

How the results depend on the processing

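Counts were taken as kept within 1.5 times, and ranks within 1 SD of the 2 replicate ranks. By these rules 20 of 34 alternatives kept the value and 14 moved it. The rank rule draws its tolerance from the same 2 replicate ranks that it judges, so for ranks these labels do not measure robustness. With no flank, 1 member (Fer2LCH) had an IDR summit, and over all pooled candidates all 7 had a summit within 2 kb, 5 had one at the promoter, 19 of the other iron genes had one there and 9 member candidates were matched in both replicates. In the stronger 2058 IDR peaks 1 member peak matched in both replicates remained, that of ferritin, and 1 motif match remained. That list had lost IRP-1A, and 3 other iron genes had a promoter summit in it against 5 in the whole IDR list, as with a promoter window of 250 bp (3). Ranked by -log10 q, both member peaks tied at rank 1. Motif matches at the 2 member summits numbered 2 within 50 bp, 0 within 25 bp and 8 within 100 bp. Taking the strongest 4117 candidates of a single replicate in place of the IDR list gave 3 to 4 members within 2 kb, with Fer3HCH added when replicate 1 was left out. It gave 3 members with a promoter summit in both cases, and 5 to 7 other iron genes, with MagR and Coprox added when replicate 2 was left out. The pooled promoter candidates of MagR and Coprox were nearest to the starts of CG12379 and sip2. The ferritin rank was 193 to 276 and the IRP-1A rank 1675 to 2287, and the cause was not tested. With a 5 kb flank IRP-1B was added, and with a promoter window of 250 bp 2 members were left. Ranking by the score field was not run, because that field is 0 throughout. No paired analysis was possible because there is 1 group. The depth in reads is unknown, so a candidate that is missing from a replicate cannot be told apart from one too weak to be listed.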
